A study of Mus musculus with 2 samples.

Results

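The S100 calcium-binding proteins described here are S100a1, S100a4, S100a6, S100a8, S100a9, S100a10, S100a11 and S100a13, taken as every non-control probe of these 8 gene names on the array. They were read by 8 of the 41174 gene probes, 1 probe and 1 spot per gene, and are 8 of 27845 gene names. The RNA came from pancreatic lymph nodes, which drain the pancreas, of female non-obese diabetic (NOD) mice aged 16 weeks, a strain in which T cells destroy the insulin-producing islets. Each of 2 two-colour arrays carried 1 hyperglycemic mouse (glucose above 500 mg/dl) in Cy5 against a pool made from 2 euglycemic animals (glucose below 200 mg/dl) in Cy3, the same for both arrays. Hyperglycemic mice are thus the replicates (n = 2), the pool is 1 control sample without a spread of its own, and a dye effect on a single probe cannot be told apart from the difference between the groups. All mice shared the strain, sex and age, and no transgene or treatment is named for any of them. A positive log2 ratio means more signal in the hyperglycemic mouse.

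S100 proteins are small proteins with paired EF-hands, helix-loop-helix folds that grip calcium, and most work as dimers that bind a target when calcium rises. S100a8 and S100a9 pair into calprotectin, which fills the cytosol of neutrophils and is also made by monocytes, withholds zinc and manganese from microbes and can act outside the cell on the receptors Tlr4 and Ager. The other members are found in many cell types, where they work on the cytoskeleton, annexins and protein release.

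The member genes lie together on chromosome 3. In the order of the RefSeq annotation (GRCm38), S100a1 and S100a13 were direct neighbours, S100a8 and S100a9 were direct neighbours, and S100a11 and S100a10 stood apart from the main group with 1 annotated gene between them. Promoter windows of 300 bases (250 before and 50 after the annotated start, RefSeq, GRCm38.p6) were at hand for 7 of the 8 genes, all but S100a10. The stretches below show the pair that is read in neutrophils, S100a4 as a neighbour with another pattern, and the 104 bases between the divergent starts of S100a1 and S100a13. Each gene's stretch runs from 250 bases before the start to 10 after it, at chr3:90668821-90669080 on the plus strand for S100a8, chr3:90695712-90695971 on the minus strand for S100a9 and chr3:90603520-90603779 on the plus strand for S100a4. The stretch of S100a1 and S100a13 is chr3:90514331-90514434 on the plus strand. Capitals mark TATAAA, the letters of the TATA box, and ATTGC, the core bound by C/EBP factors of myeloid cells, on either strand.
S100a8: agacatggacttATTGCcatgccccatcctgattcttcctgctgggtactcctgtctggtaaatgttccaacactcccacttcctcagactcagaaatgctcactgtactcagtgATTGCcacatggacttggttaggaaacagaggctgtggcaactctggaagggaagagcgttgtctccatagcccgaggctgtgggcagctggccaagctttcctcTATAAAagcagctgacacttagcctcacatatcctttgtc
S100a9: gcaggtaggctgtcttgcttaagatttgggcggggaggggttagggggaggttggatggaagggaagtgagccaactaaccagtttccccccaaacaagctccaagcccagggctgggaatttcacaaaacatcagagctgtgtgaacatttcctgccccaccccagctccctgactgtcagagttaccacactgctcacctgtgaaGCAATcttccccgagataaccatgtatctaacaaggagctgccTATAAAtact
S100a4: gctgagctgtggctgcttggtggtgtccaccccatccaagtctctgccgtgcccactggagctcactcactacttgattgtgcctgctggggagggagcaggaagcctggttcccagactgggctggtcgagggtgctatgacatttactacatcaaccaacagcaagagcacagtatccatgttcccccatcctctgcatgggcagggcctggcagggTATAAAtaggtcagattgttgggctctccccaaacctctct
S100a1-S100a13: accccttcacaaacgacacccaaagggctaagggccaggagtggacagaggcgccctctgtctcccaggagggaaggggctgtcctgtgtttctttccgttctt

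TATAAA was present in the windows of S100a4, S100a8 and S100a9, 3 of 7, against 13.6% of 32851 promoter windows of the same length. It lay at bases -31 to -26 in S100a4 and -30 to -25 in S100a8. In S100a9 it lay at bases 1 to 6, and so not before the annotated start. ATTGC was present in S100a8 and S100a9, 2 of 7, against 26.4% of all windows. Of 2 further motifs searched on both strands, GAGGAA, the core bound by PU.1, was in S100a4, S100a8 and S100a11 (28.3% of all windows), and TGANTCA, the AP-1 site, was in S100a11 (7.81%). No match overlapped another. A match is a run of letters and not a binding site.

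On arrays 1 and 2, 21.7% and 63.0% of gene spots were well above background in Cy3 but 14.5% and 16.4% in Cy5, and no gene spot was saturated. The median Cy5 signal of gene spots was 37.7 and 38.2, over a median background of 35 on both arrays. In Cy3 it was 233.7 and 81.2, over 31.0 and 31.5. A spot counts as well above background by the scanning software's stricter test, and is called dim otherwise. Lymphocyte genes were read, as a lymph node label implies. Of 12 T cell genes, 10 were well above background in Cy3 on both arrays and 7 in Cy5, and of 8 B cell genes, 6 and 4. Summed processed signals of the T cell genes were 31261 and 48872 in the pool and 13203 and 20339 in the hyperglycemic mice, far below those of exocrine pancreas genes. All 11 exocrine pancreas genes on the array were well above background in both channels, with summed processed signals from 1318400 to 1935370 in the pool and from 1634996 to 2828013 in the hyperglycemic mice. Ratios come from a fit of the scanner signals (8815 probes) and from the deposited log2 ratios (5072 probes), and both read the same arrays. The first adds an offset of 50 to each signal, which shrinks the ratios of dim probes towards 0.

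S100a9 was higher in both hyperglycemic mice in the deposited and the scanner-signal ratios. Its processed signal was 1125 in the pool and 3897 in the hyperglycemic mouse on array 1, and 1821 and 3998 on array 2. Both hyperglycemic values lay above both pool readings, though the same pool read differently on the arrays. Before dye normalization its signal over local background was 2786 and 1617 in Cy3 but 89.2 and 73.8 in Cy5. The direction of its ratio thus rests on the normalization. The deposited log2 ratio was 1.79 in mouse 1 and 1.13 in mouse 2, a mean of 1.46 ± 0.46 (SD, n = 2) or 2.76-fold (limma adjusted p = 0.00184). The scanner-signal ratios were 0.80 and 0.67, a mean of 0.74 ± 0.10 (SE 0.10) or 1.67-fold (adjusted p = 0.0219). It was the 1 member called in the scanner-signal fit, where 4.74% of all probes were called higher and 0.488% lower. Its deposited ratio exceeded those of 97.5% of the probes of that table, and its scanner-signal ratio those of 94.8%. With median centring in place of loess, which put the median of all tested probes at -2.01, S100a9 read -2.10, or -0.09 from that median. The adjusted p was 0.0524 with offset 10, 0.0624 with the filter on both channels, 0.0686 in processed signals and 0.0762 with no filter. In a bulk sample a change in the number of cells of a type and a change in RNA per cell cannot be told apart.

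S100a8, the partner of S100a9 in calprotectin, did not pass the filter on dim probes and was not tested in either fit. The Cy5 signal was 43.9 over a local background of 35 in mouse 1 and 45.3 over 36 in mouse 2. It was not well above background in Cy5 on either array, and in Cy3 it was so on array 2 alone. By the scanning software's weaker test of signal above background it was detected in both channels on both arrays. Its processed signal was 174 in the pool against 410 in mouse 1, and 283 against 537 in mouse 2, and both mice stood above both pool readings. The processed log2 ratios were 1.24 and 0.92, and no fold is given for a probe this dim. In the scanner-signal ratios, where the offset of 50 exceeds its net Cy5 signal of 8.89 and 9.27, S100a8 read 0.05 and 0.10. With no filter on dim probes its mean was 0.08 ± 0.03 (limma adjusted p = 0.8).

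**Figure D1:**
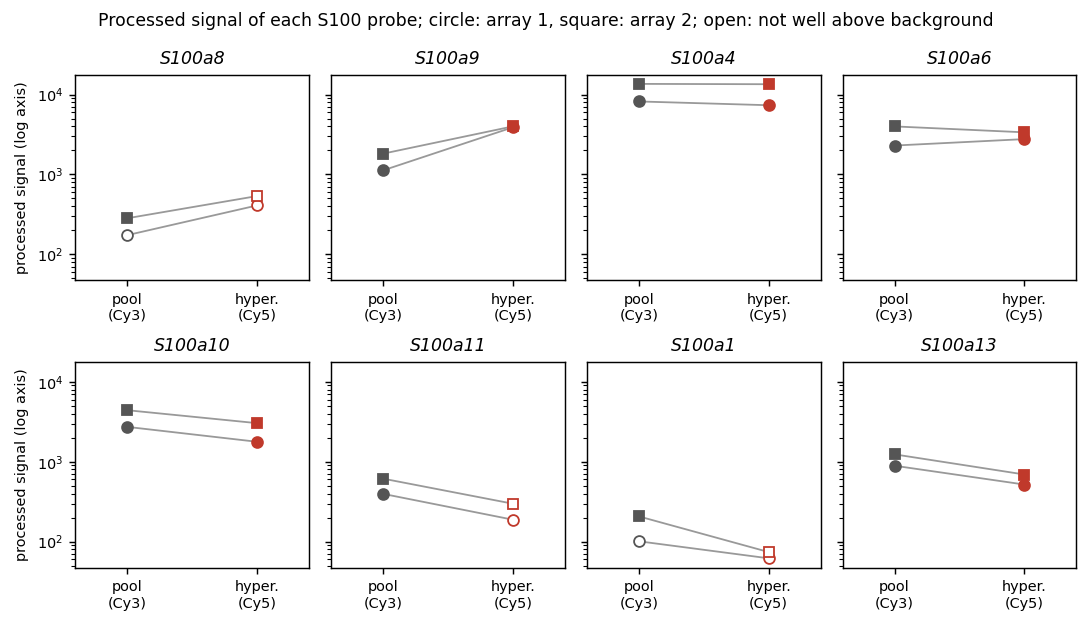
Processed signal (log axis) of each S100 probe in the euglycemic pool (Cy3, grey) and the hyperglycemic mouse (Cy5, red), joined within array 1 (circles) and array 2 (squares), with open symbols for signals not well above background. S100a9 rises from 1125 to 3897 and from 1821 to 3998, S100a8 rises with 3 of its 4 symbols open, and S100a10, S100a11, S100a1 and S100a13 slope down on both arrays.

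S100a4 and S100a6 act on the cytoskeleton and on protein turnover, S100a4 by binding the heavy chain of non-muscle myosin and S100a6 (calcyclin) by binding Cacybp. S100a4 read 8195 in the pool and 7348 in mouse 1, and 13593 and 13468 on array 2, so that channels differed less than arrays. Its deposited log2 ratios were -0.16 and -0.01, with a mean of -0.09 ± 0.10 (adjusted p = 0.681). The scanner-signal ratios were 0.46 and 0.37, with a mean of 0.41 ± 0.07 (adjusted p = 0.0908). Ratios of the scanner-signal fit rose with intensity there, and the 131 other probes within 0.25 log2 units of the intensity of S100a4 had a median of 0.71. S100a6 read 2299 and 2768 on array 1, and 3991 and 3365 on array 2, so the mice lay on opposite sides of the pool. Its deposited ratios were 0.27 and -0.25, and the mean was 0.01 ± 0.36 (adjusted p = 0.968).

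S100a10 and S100a11 are the annexin-binding members. S100a10 (p11), which has lost calcium binding and joins annexin A2 at membranes, read 2729 in the pool and 1776 in mouse 1, and 4413 and 3038 on array 2. Its signal was lower than the pool's on each array, though array 2 read above array 1 in both channels. It fell in the deposited ratios, at -0.62 and -0.54, with a mean of -0.58 ± 0.06 (1.49-fold lower, adjusted p = 0.0205). The scanner-signal ratios were -0.28 and -0.43, with a mean of -0.36 ± 0.11 (adjusted p = 0.141). S100a11, which binds annexin A1, read 396 in the pool and 188 in mouse 1, and 614 and 298 on array 2. It was not well above background in Cy5 on either array, so it is absent from the deposited ratios and no fold is given. Its processed ratios were -1.08 and -1.04 (adjusted p = 0.067), but its scanner-signal ratios were 0.01 and -0.01 (adjusted p = 0.997).

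S100a1 and S100a13, the divergent neighbours, are known for muscle calcium release (S100a1, which binds the ryanodine receptor) and for export of Fgf1 and interleukin-1 alpha without a signal peptide (S100a13). S100a13 read 891 in the pool and 518 in mouse 1, and 1237 and 692 on array 2, and both hyperglycemic values were below both pool readings. It fell in the deposited ratios, at -0.78 and -0.84, with a mean of -0.81 ± 0.04 (1.75-fold lower, adjusted p = 0.00597). Its Cy5 signal passed the stricter background test but was low, at 48.7 over a local background of 33 in mouse 1. In mouse 2 it was 49.8 over 36.5, so the size of the S100a13 fall is uncertain. The scanner-signal ratios were -0.09 and -0.37, with a mean of -0.23 ± 0.20 (adjusted p = 0.337). The S100a1 probe was dim in Cy5 for both mice and in Cy3 on array 1, with processed signals of 101 in the pool and 61.8 in mouse 1, and 207 and 74 on array 2. By the weaker test too its Cy5 signal was not above background, and it did not pass the filter of either fit (-0.07 ± 0.11 and adjusted p = 0.833 with no filter).

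**Figure D2:**
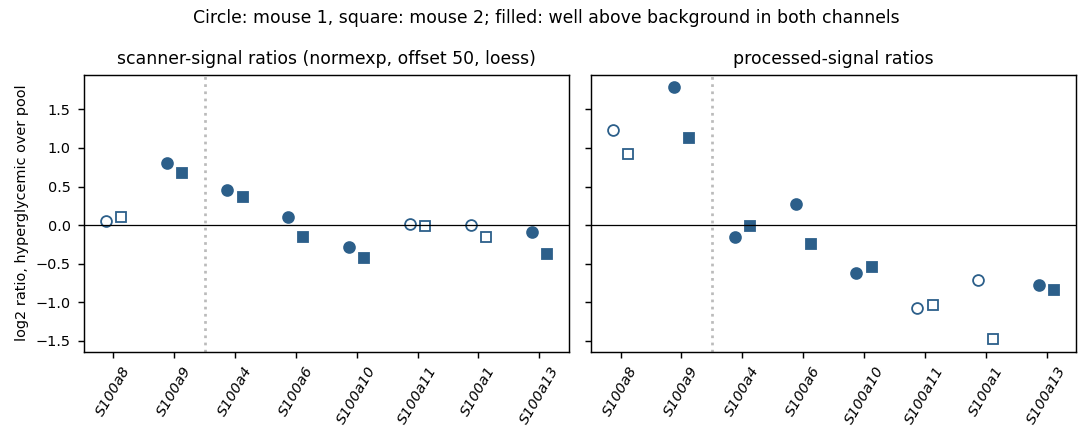
Log2 ratio of hyperglycemic over pool for each member in mouse 1 (circles) and mouse 2 (squares), as scanner-signal ratios (left) and processed-signal ratios (right), filled where both channels were well above background; the dotted line parts the neutrophil pair from the others. On the right S100a8 and S100a9 lie between 0.92 and 1.79 and the other members at 0.27 or below, while on the left S100a8 lies at 0.05 and 0.10.

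Of the 5 members in the deposited ratios, 1 was called higher (S100a9) and 2 lower (S100a10 and S100a13), against 25.1% of all probes there called higher and 18.4% lower. The same ratios tested among the 8815 probes of the scanner-signal fit gave adjusted p = 0.12 for S100a10, 0.0822 for S100a13 and 0.0686 for S100a9. Of the 6 members in the scanner-signal fit, 1 was called higher and 0 lower by limma. At an unadjusted p under 0.05 there were 3, beside 1713 of all 8815 probes. Among 10406 probes detected by the weaker test in both channels on both arrays, 12.4% were beyond 1.5-fold higher in processed signals on both arrays and 14.4% beyond 1.5-fold lower. Of the 7 members in that set, S100a8 and S100a9 were beyond it upwards and S100a11 and S100a13 downwards. Among the 3804 of these probes that were dim in Cy5 on both arrays, the class of S100a8 and S100a11, 5.89% were beyond it upwards and 21.7% downwards.

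The neutrophil pair stood above the other members in processed signals. The mean log2 ratio of S100a8 and S100a9 was 1.51 in mouse 1 against -0.51 for the other 6, and 1.03 in mouse 2 against -0.69. The difference was 2.03 and 1.72, with a mean of 1.87 ± 0.21 (n = 2), and the lowest of the pair lay above the highest of the others in each mouse. Without S100a1, whose Cy5 signal was not above background, it was 1.99 and 1.57, with a mean of 1.78 ± 0.30. S100a8 and S100a11 remain dim in these means, so their size is uncertain. In the scanner-signal ratios the difference was 0.39 and 0.51, with a mean of 0.45 ± 0.08, and there S100a8 lay below S100a4 in both mice. S100a9 alone, against the 4 others measured in both channels, was higher by 0.75 and 0.82 in the scanner-signal ratios and by 2.11 and 1.54 in the deposited ratios. S100a9 lay above each of these 4 in both mice, also with offset 10, with no background correction and with median centring. These differences describe 2 mice and carry no test.

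**Figure D3:**
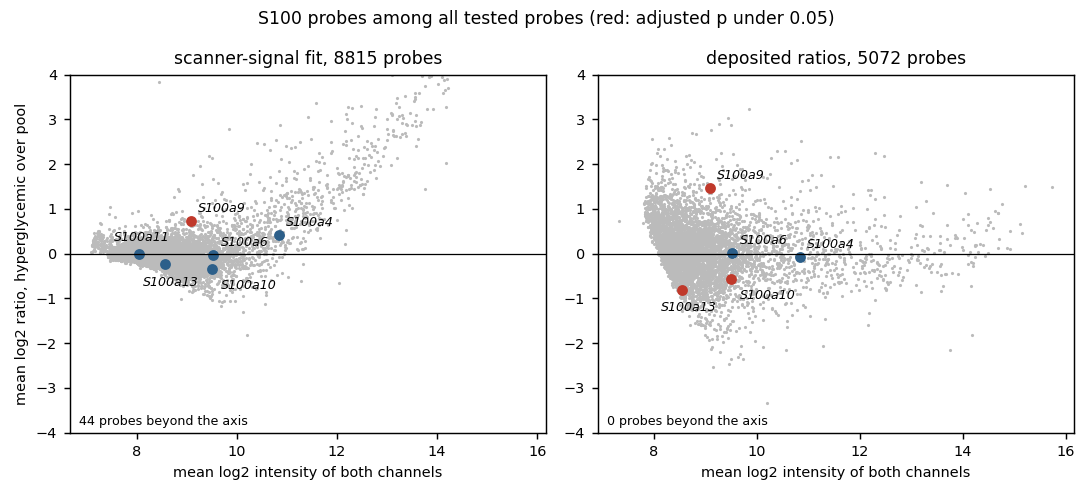
Mean log2 ratio of both mice against mean log2 intensity of both channels for all tested probes (grey) and the S100 members (red, adjusted p under 0.05; blue, not called), in the scanner-signal fit (left, with 44 probes beyond the axis) and the deposited ratios (right). S100a9 lies in the upper part of the cloud in both panels, S100a4 lies where scanner-signal ratios rise with intensity, and S100a10 and S100a13 are called in the deposited ratios alone.

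S100a8 and S100a9, with probes at mm8 chromosome 3, 90755783 to 90755842 and 90778590 to 90778649, had positive processed ratios in both mice. The probe of S100a6 (90700165 to 90700224) lies nearest to them among the other members and that of S100a4 next (90691847 to 90691907), and neither was called. S100a10 (93649919 to 93649978) and S100a13 (90601955 to 90610324, a range longer than a probe) fell in the deposited ratios from near opposite ends of the set. S100 genes outside the 8 members gave no tested probe. S100a3, S100a5, S100a7a, S100a7l2, S100a14, S100a16, S100b and S100g had a probe, and 0 of these 8 was well above background in Cy5 on either array. S100b, best known from glia, read 57 in the pool and 197 in mouse 1, and 91.2 and 283 on array 2, all but the pool reading of array 2 not well above background. Its processed log2 ratios were 1.78 and 1.64, above those of S100a8 in both mice, so positive processed ratios were not particular to the neutrophil pair. By the weaker test its Cy5 signal was above background on both arrays, and its Cy3 signal on array 2 alone.

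Few genes of the granule and surface programme of neutrophils could be measured beside S100a9. Of 28 neutrophil genes listed, 25 had a probe and 2 were well above background in Cy5 on both arrays, Chil3 and Lrg1. In the scanner-signal fit 4 were tested and 0 were called by limma, with 0 at an unadjusted p under 0.05 and a median of -0.03, equal to the -0.03 of all genes, of which 5.15% were called higher and 0.493% lower. In the deposited ratios the 1 neutrophil gene, Lrg1, was at 0.14 ± 0.06 (adjusted p = 0.474). Chil3, a chitinase-like protein of myeloid cells, read 53.7 in the pool and 425 in mouse 1, and 143 and 695 on array 2. Its processed log2 ratios were 2.98 and 2.28, with Cy5 well above background on both arrays and Cy3 on array 2 alone. The scanner-signal ratio of Chil3, where the offset shrinks dim probes towards 0, was 0.26 ± 0.24 (limma adjusted p = 0.314). Mcemp1, dim in Cy5 on both arrays, had processed log2 ratios of -1.33 and -2.21 in its tested probe. The granule genes Mpo, Elane, Lcn2, Ngp, Ltf and Camp were not well above background in Cy5 on either array, with Cy5 processed signals between 16.4 for Elane and 151 for Mpo. The summed processed signal of all neutrophil probes was 6334 and 7809 in the pool and 6237 and 7229 in the hyperglycemic mice. Lrg1 alone gave 2787 and 4391 of it in the pool and 3179 and 4706 in the mice, and without Lrg1 the sums, of probes all dim in Cy5 but that of Chil3, were 3547 and 3418 in the pool and 3057 and 2523 in the mice. The part of neutrophil numbers in the S100a9 ratio was not tested.

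Monocytes, the other source of S100a8 and S100a9, had more measurable genes. Among 9 monocyte and macrophage genes with a deposited ratio, 3 passed the test upwards and 2 downwards, with a median of 0.27 against 0.06 for all genes, of which 25% were called higher and 18.4% lower. Marco, a scavenger receptor, was at 0.60 ± 0.24 (adjusted p = 0.0233) and Ly6c1 at -1.32 ± 0.02 (adjusted p = 0.00124). The complement chains C1qc and C1qa, at 0.51 ± 0.02 and -0.55 ± 0.13, parted in direction. In the scanner-signal fit 3 of 13 were higher and 1 lower, beside 5.15% and 0.493% of all genes, with a median of 0.04. Lyz2 was at 3.50 ± 1.04 there against 0.24 ± 0.34 in the deposited ratios. Marco was at 2.81 ± 1.13 and Ly6c1 at -0.79 ± 0.24 in the scanner-signal fit. Summed processed signals of this list were 120862 and 172207 in the pool and 128004 and 202498 in the hyperglycemic mice, and their part in the S100a9 ratio was not tested. Markers of mast cells, basophils and eosinophils were not well above background in Cy5 for any of 9 genes.

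Of 6 partners of the S100 proteins with a deposited ratio, 2 were called lower and 0 higher, beside 18.4% and 25% of all genes. Anxa5, an annexin that binds phosphatidylserine, was at -1.12 in mouse 1 and -1.85 in mouse 2, and the myosin chain Myh9, the target of S100a4, at -0.88 and -0.89 (adjusted p = 0.00206 and 0.0043). Anxa1 was at 0.37 ± 0.11 (adjusted p = 0.0933) and Cacybp at -0.38 ± 0.06 (adjusted p = 0.0798). The list's median was -0.33 there, and in the scanner-signal fit it was 0.03 with 0 of 11 called by limma and 1 at an unadjusted p under 0.05, Anxa5 at -0.63 ± 0.45 and Myh9 at 0.10 ± 0.39. Anxa2, the partner of S100a10, was dim in Cy5 on both arrays in each of its probes. Of the receptors, Ager and Tlr4 were dim in Cy5 in all probes. The 1 receptor in the deposited ratios, Cd36, was at -0.35 ± 0.03 (adjusted p = 0.101), and 0 of 4 were called in the scanner-signal fit by limma, with 0 at an unadjusted p under 0.05.

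Of 12 EF-hand proteins outside the S100 family with a deposited ratio, 3 were called upwards and 3 downwards, near the 25% and 18.4% of all genes, with a median of 0.12 against 0.06. Cib1 was at -1.25 ± 0.48 (adjusted p = 0.00317), the leukocyte actin bundler Lcp1 at -2.08 ± 0.65 (adjusted p = 0.00108) and Chp1 at 0.83 ± 0.37 (adjusted p = 0.0101). In the scanner-signal fit 2 of 15 were higher and 0 lower, beside 5.15% and 0.493% of all genes, and Chp1 was at 0.61 ± 0.15 (adjusted p = 0.0417).

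Genes of other cell types are given beside the same background over all genes, of which 25% were called upwards and 18.4% downwards among the deposited ratios, and 5.15% and 0.493% in the scanner-signal fit. In the latter, 1713 of 8815 probes had an unadjusted p under 0.05 in limma. T cell genes fell for 7 of 7 in the deposited ratios (median -1.28) and for 1 of 10 in the scanner-signal fit (median -0.51). Their scanner-signal means were all below 0, with 9 at an unadjusted p under 0.05 in limma. Fibroblastic stroma, with 3 of 9 deposited ratios higher and 3 lower (median -0.42), had 1 of 11 called upwards and 0 downwards by the scanner-signal fit (median 0.13). In the deposited ratios the matrix proteoglycans Lum and Dcn were at 1.20 ± 0.07 and 1.00 ± 0.49 and the chemokine Ccl19 at -1.04, though Ccl19 read 1.01 ± 0.82 (adjusted p = 0.14) in the scanner-signal fit. Exocrine pancreas genes were higher for 6 of 11 and lower for 2 in the deposited ratios (median 0.67), and higher for 10 of 11 in the scanner-signal fit (median 4.70). The size of their change is thus uncertain, with deposited against scanner-signal ratios of 0.13 and 4.75 for Cel, -0.73 and 3.28 for Cela1, and 1.51 and 6.56 for Try5. Erythroid genes were higher for 3 of 3 and for 1 of 3 in these fits, and endothelial genes for 2 of 3 and for 1 of 4. The keratins Krt8 and Krt18 were higher in the deposited ratios, while 0 of 3 epithelial genes were called in the scanner-signal fit by limma (2 at an unadjusted p under 0.05). Adipocyte genes were lower for 2 of 3 and for 1 of 4. All 4 had an unadjusted p under 0.05 by limma in the scanner-signal fit, Fabp4 upwards at 1.37 ± 0.85. B cell genes were higher for 1 of 4 and lower for 2 in the deposited ratios, and 0 of 6 were called in the scanner-signal fit by limma (4 at an unadjusted p under 0.05). The part of these cell types in the S100a10 and S100a13 ratios was not tested.

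**Figure D4:**
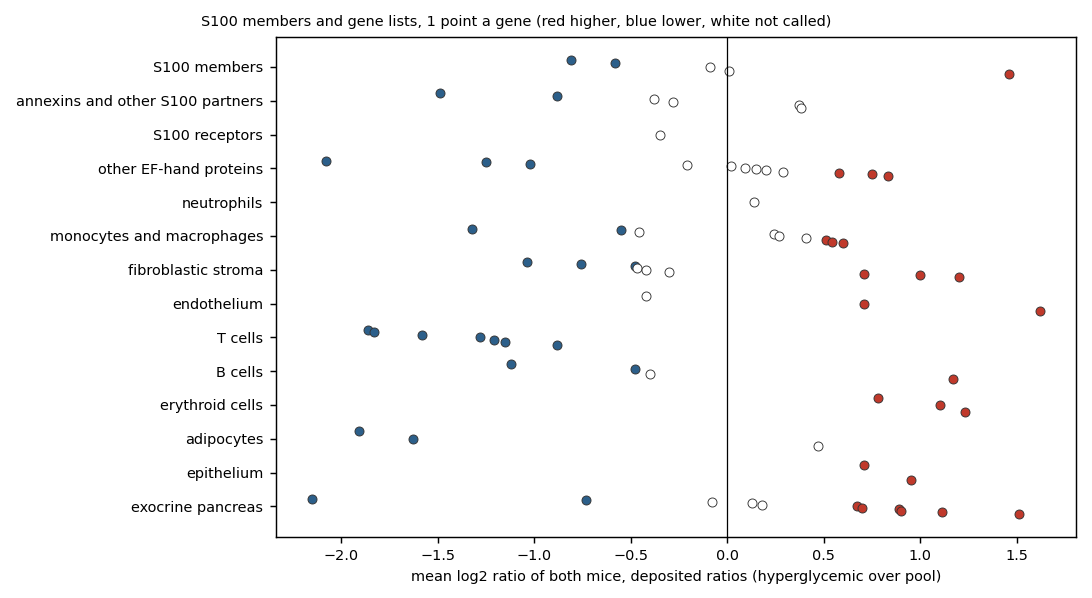
Mean log2 ratio of both mice in the deposited ratios, 1 point per gene, for the S100 members and each gene list (red called higher, blue called lower, white not called at an adjusted p of 0.05). S100a9 is the single S100 member to the right of 1, the neutrophil list holds 1 point at 0.14, and all 7 T cell points lie left of 0.

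Over 4405 genes, those nearest to S100a9 in the scanner-signal and deposited ratios of both mice were Errfi1 (Euclidean distance 0.26), Hadh (0.26), Rp9 (0.31), Arhgdig (0.31) and the unnamed transcript NAP030873-1 (0.32). Errfi1, which restrains signalling by ErbB receptors, had deposited ratios of 1.57 and 1.06 in the 2 mice. None of the 5 belongs to a list used here. For S100a8, with scanner-signal ratios alone, 962 of 7297 genes (13.2%) lay within a distance of 0.1, so its nearest genes (Rsbn1, 1810058I24Rik, Dctn1, Ldb3 and TC1651685) were 5 of many.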

How the data were processed

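Total RNA (1 ug per sample, per the labels) was hybridised to 2 arrays of design 014868. Per the file headers, Feature Extraction 10.7.3.1 gave the deposited scanner intensity columns. The processed signals among them are background-subtracted, detrended across the slide and dye-normalized by that software; the deposited log10 ratio is Cy5 over Cy3 of these. The deposited log2 ratios (5072 gene probes and 26 controls) equal that column on the log2 scale within 2.77e-06. How their probes were chosen is not given in the sources used here, but 5071 of the 5072 gene probes passed the stricter background test in all 4 array channels.

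For the scanner-signal fit, mean signals and local backgrounds were corrected by normexp (offset 50), normalized by loess (span 0.3) within arrays and kept where 1 channel or more passed the stricter background test on each array. Outlier spots (338 and 184) were left out. The mean log2 ratio was tested against 0 with limma 3.58.1 (R 4.3.3, two-sided, 1 residual degree of freedom). Benjamini-Hochberg adjustment ran over all tested probes, and probes were called at an adjusted p under 0.05. The fit was run on simulated ratios with a common spread for all probes. That run set a limit only on the error of the mean estimates, so it cannot speak to false calls here. A list gene took its brightest tested probe, and up to 4 called genes per list (2 where none was called) were named by size of ratio, with further members named after their values were seen. Of the probes, 23374 matched a gene by accession, 6733 by symbol, 2919 by synonym and 8148 stayed unmatched in the RefSeq table. Alternatives were offset 10, no background correction, median centring, deposited ratios, processed signals, other filters, an intensity trend in the variance and leaving out a mouse. The members and lists were chosen with earlier results of these data known.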

Additional observations from a re-analysis of the deposited data

How the results depend on the processing

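Over all probes 461 were called in the scanner-signal fit, against 2205 in the deposited ratios, 102 with offset 10, 2099 with no background correction, 8619 with median centring, 94 with the filter on both channels, 24 with no filter, 1180 with an intensity trend in the variance and 0 in processed signals (3396 there at an unadjusted p under 0.05 in limma). Of the S100 probes 1 was called, against 3 in the deposited ratios, 2 with no background correction, 6 with median centring, and 0 each with offset 10, with processed signals, with the filter on both channels and with no filter (2, 4, 3 and 4 at an unadjusted p under 0.05). Over all probes the unadjusted counts were, in the same order, 1637 of 8815, 3396 of 8815, 1159 of 5072 and 3179 of 41162. The S100a9 ratio of 0.74 was 1.04 with offset 10, 1.46 in processed signals and 0.74 under both filters, where the call was lost, and -2.10 with median centring; leaving out a mouse gave 0.67 to 0.80. The neutrophil pair minus the other members, 0.45, was 0.75 with offset 10, 0.84 with no background correction, 1.13 with median centring and 1.87 in processed signals; S100a9 alone against the members in the table gave 1.83 in the deposited ratios and 0.79 with the filter on both channels, and leaving out a mouse gave 0.39 to 0.51. S100a4 turned to -0.09 in the deposited ratios and processed signals and -3.88 with median centring. S100a6 turned to 0.01 in the deposited ratios and processed signals, and read -0.16 without mouse 1 and 0.11 without mouse 2. S100a11 turned to -0.23 with no background correction, -1.06 in processed signals and -1.54 with median centring, and without mouse 1 read -0.01. The cause of these changes was not tested. Averaging the probes of a gene changes nothing, since each member has 1 probe. Counts of calls without a mouse could not be fitted, as 1 array leaves no residual degrees of freedom. No paired analysis was possible because both arrays share a single pooled control. Cy5 signal over background limits S100a1, S100a8 and S100a11. That of S100a13, at 15.7 and 13.3, was little above the 9.47 and 12.1 of S100a11. Without S100a1, an alternative chosen after seeing the data, the pair's difference was 0.45 in the scanner signals and 1.78 in processed signals.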
